A study of Mus musculus with 8 samples.

Results

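The atrioventricular (AV) cushions of mouse embryos carrying an altered Klf2 gene were compared with those of wild type embryos, gene by gene over the whole transcriptome. The comparison uses 4 of the 8 RNA-seq libraries of the study, chosen by tissue and genotype alone: 2 of wild type cushion and 2 of mutant cushion, numbered 1 and 2 in each group as in the labels. The other 4 libraries, 2 wild type and 2 mutant, are of the ventricle. All samples were C57BL/6 embryos at embryonic day E12.5. The labels write the mutant genotype as NfatC1+/-; KLF2fl/fl, in which KLF2fl/fl is a Klf2 gene flanked by recombination sites. The controls are labelled wild type, while the series' design text describes them as KLF2 fl/fl, so the controls may carry the floxed gene too. The sources used here name no recombinase, do not state how many embryos made a library, and do not tell what a replicate number marks. P-values therefore measure only the spread between these libraries, which may be technical.

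AV cushions are swellings of extracellular matrix between the atria and ventricles, lined by endocardium and filled with mesenchymal cells that arise from it, and they are remodelled into the mitral and tricuspid valves. KLF2 is a zinc-finger transcription factor that endothelial and endocardial cells make in response to the shear force of flowing blood, and with its relative KLF4 it controls genes of the quiescent, flow-exposed endothelium. WNT9B is a secreted WNT protein of the endocardium, and WNT signals act on the mesenchyme beneath it.

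The deposited counts summed to between 20289518 and 22977563 reads per cushion library after 1 row per gene symbol was kept. Of 22869 symbols, 14940 had enough reads to be tested. The unit of level below is CPM (a count scaled by library size), and 1 CPM is at least 18.7 reads in every library. Cushion markers were present: Twist1, a transcription factor of cushion mesenchyme, measured 131.8 and 80.1 CPM in wild type cushions and 93.2 and 66.0 CPM in mutant cushions, against 2.68 to 11.5 CPM in the 4 ventricle libraries. Dissected cushions also held heart muscle, since Tnnt2, a troponin of all cardiomyocytes, measured 893.2 and 1237 CPM in wild type and 900.9 and 1147 CPM in mutant cushions. In these bulk samples fewer cells of a type and less RNA per cell cannot be told apart. Mutant cushion 2 lay nearer to the ventricles than the remaining cushions did: its score on the first principal component of all 8 libraries was 22.8, against 46.3 to 54.9 for those 3 and -35.03 to -50.3 for ventricles.

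Klf2 itself measured 17.3 and 12.9 CPM in wild type cushions and 1.96 and 0.651 CPM in mutant cushions. Both mutant libraries were below both wild type ones, as the labels would have it. The log2 fold change was -3.54 (SE 0.42), with an adjusted p of 0.145 in edgeR's quasi-likelihood test and of 2.86e-05 when that fit also held the replicate number as a block. Nfatc1, the other gene of the genotype label and a transcription factor of the endocardium, measured 35.9 and 22.1 CPM in wild type and 24.9 and 15.2 CPM in mutant cushions. These ranges overlap, and the adjusted p was 0.718 without the block and 0.0994 with it.

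Across all genes, the edgeR fit without the block called 0 of 14940 genes (0%) at an adjusted p under 0.05, and the smallest value was 0.0903, for Dpt. At an unadjusted p of 0.05 the same fit had 1699 genes, 918 higher and 781 lower in mutant cushions. DESeq2 called 25 genes, 6 higher and 19 lower, and limma-voom called 0. Libraries with the same replicate number deviated together in every pair of groups, so the fit with the replicate block bears on each result. It called 129 genes: 44 were higher in mutant cushions (0.295% of the genes tested) and 85 were lower (0.569%). With a further correction for the GC content and length of transcripts, 27 genes were higher (0.181%) and 47 were lower (0.315%). The 2 fits shared 50 genes, 12 higher and 38 lower. Below, "rose" and "fell" are used for these 50 genes, and any other gene that passed only 1 of the 2 fits is named as such. Log2 fold changes and SEs are from the fit without the block unless stated, also where a p with the block stands beside them.

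The block count depended on which libraries entered. Leaving out wild type cushion 1 or 2 gave 30 or 25 genes, mutant cushion 1 or 2 gave 891 or 243, wild type ventricle 1 or 2 gave 65 or 40, and mutant ventricle 1 or 2 gave 640 or 543. All 38 genes that fell and all 12 that rose kept their direction without mutant cushion 2. They were chosen on libraries that stay in that fit, which favours this outcome. Without wild type cushion 2, in the fit without the block, Erv3 of the 38 reversed to a log2 fold change of 2.39.

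**Figure D1:**
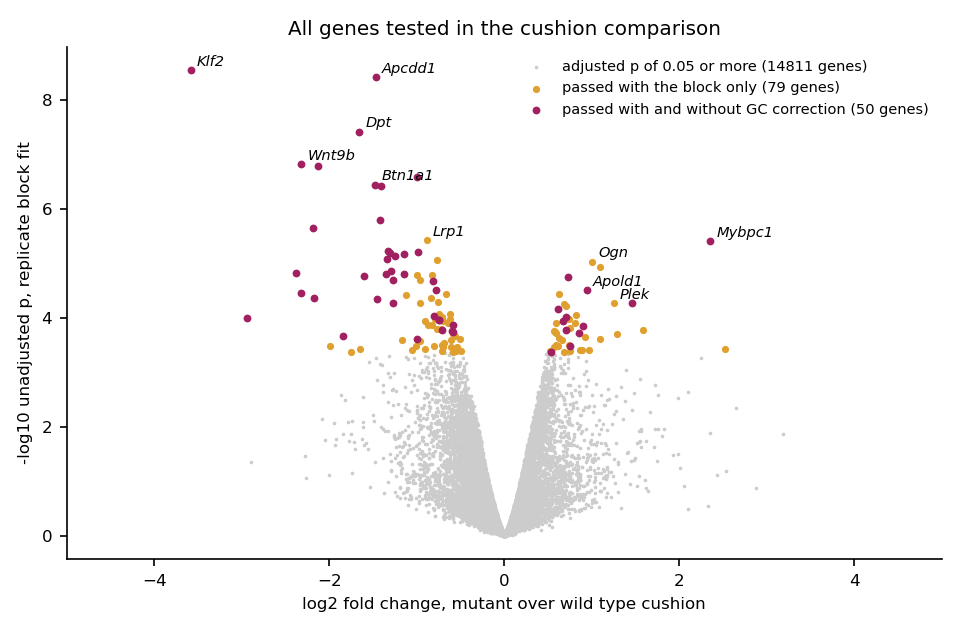
Log2 fold change of mutant over wild type cushion (x axis) against -log10 of the unadjusted p (y axis) in the fit with the replicate block, 1 point per gene tested. Purple points are the 50 genes that passed with and without the GC correction, with 38 of them on the lower side and Klf2 at the far left. Yellow points passed with the block only.

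Over the 38 genes that fell, the median wild type level was 24.7 CPM in cushion and 2.87 CPM in ventricle. Of these, 37 were higher in both wild type cushions than in both wild type ventricles, against 33.5% of all genes. The same wild type cushions entered the choice of the 38 genes, which favours high values there, so the 2 shares are not on equal terms. Their median log2 fold change in cushion was -1.29. The cushion libraries of the 2 genotypes did not overlap for 35 of them. Such separation was common in general, with 23.9% of all genes lower and 24.5% higher in both mutant libraries than in both wild type ones. The 3 genes with overlap were Bgn, Sema5a and Erv3.

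Among genes of the extracellular matrix, dermatopontin (Dpt), a small protein that binds collagen fibrils and decorin, measured 55.0 and 41.9 CPM in wild type and 15.0 and 15.5 CPM in mutant cushions. The mutant libraries lay close together, far under both wild type ones. Its log2 fold change was -1.67 (SE 0.17), and its adjusted p was 0.000190 with the replicate block. Col9a3, a chain of the cartilage-type collagen IX, measured 71.5 and 48.2 CPM in wild type and 41.7 and 21.01 CPM in mutant cushions, so mutant cushion 1 came near the wild type range. Bgn, the proteoglycan biglycan, measured 216.2 and 115.0 CPM in wild type and 125.8 and 86.8 CPM in mutant cushions. Here the fall showed only between libraries of the same number, since mutant cushion 1 was above wild type cushion 2. Matn4, a matrilin that links matrix fibres, fell by 0.98 on the log2 scale, Sned1, a matrix protein, by 1.29, and Olfml2a, a secreted olfactomedin-domain protein, by 1.29.

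Htra1, a serine protease that cleaves matrix proteins, measured 216.3 and 153.5 CPM in wild type and 119.9 and 70.0 CPM in mutant cushions. Adamts8, a metalloprotease, measured 67.3 and 48.8 CPM in wild type and 35.0 and 14.4 CPM in mutant cushions. For both genes mutant cushion 2 was the lowest library, and without it the log2 fold changes were -0.62 for Htra1 and -0.73 for Adamts8, against -0.96 and -1.24 with it. Prss35, a protease-like secreted protein, fell by 0.76, and Crispld2, a secreted protein of the mesenchyme, by 1.29. These 4 genes do not stand for matrix proteases in general. None of them is in the list of matrix proteases and inhibitors, in which 7 of 18 genes were higher and 11 lower, with a median log2 fold change of -0.22 (0.03 after GC correction, -0.02 without mutant cushion 2 and 0.03 without wild type cushion 1); 0 passed the block fit, with or without GC correction.

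Wnt9b fell 4.995-fold, from 34.9 and 34.4 CPM in wild type to 6.97 and 6.90 CPM in mutant cushions (log2 -2.32, SE 0.32, adjusted p 0.000499 with the block). The libraries of each genotype differed little from each other. Wnt16, another WNT ligand, fell by 1.46. Ndp, the ligand norrin, which signals through a WNT receptor, measured 5.68 and 3.13 CPM in wild type and 0.883 and 1.48 CPM in mutant cushions. Of 13 genes known as direct feedback targets of WNT signalling, 12 were lower, 5 passed the block fit and 6 the block fit with GC correction. Axin2, the general target and feedback inhibitor, fell from 23.1 and 25.2 CPM to 10.4 and 9.94 CPM, and Notum, an enzyme that inactivates WNT proteins, fell from 17.0 and 14.8 CPM to 4.37 and 2.996 CPM. Apcdd1, Nkd1 and Lef1 fell too, with log2 fold changes of -1.46, -1.15 and -1.33.

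Enpp2, or autotaxin, makes the lipid signal lysophosphatidic acid; it measured 25.2 and 19.6 CPM in wild type and 8.24 and 8.29 CPM in mutant cushions (log2 -1.44, SE 0.22). Mstn, myostatin, a TGF-beta family inhibitor of muscle growth, measured 133.6 and 84.1 CPM in wild type and 66.7 and 54.8 CPM in mutant cushions. Both genes were separated between genotypes. Tkt, transketolase of the pentose phosphate pathway, measured 169.8 and 186.1 CPM in wild type and 118.6 and 93.6 CPM in mutant cushions. Dmgdh, a mitochondrial enzyme of choline breakdown, fell by 2.29 on the log2 scale. Pi16, a secreted peptidase inhibitor described as responsive to flow in endothelium, fell by 1.58.

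Btn1a1, a butyrophilin, measured 76.3 and 54.5 CPM in wild type and 22.9 and 23.2 CPM in mutant cushions. Tmem132c, a membrane protein, measured 54.1 and 62.4 CPM in wild type and 21.7 and 22.3 CPM in mutant cushions. As with Dpt, the 2 mutant libraries were almost equal for both genes, whose log2 fold changes were -1.50 (SE 0.26) and -1.41 (SE 0.19). Epha4, an ephrin receptor of cell guidance, fell by 0.60, the semaphorin Sema5a by 0.80, Cdh6, a cadherin, by 1.15, and Gfra1, the receptor of the growth factor GDNF, by 0.75. Epha4 and Sema5a are not in the list of guidance ligands and receptors, in which 10 of 26 genes were higher and 16 lower, with a median of -0.10; 0 of these passed the block fit, and 2, Epha3 and Unc5c, passed it with GC correction, both lower. Thsd7b, a thrombospondin-domain protein, fell by 0.83, and Slc13a4, a sulfate transporter, by 1.27. Weakly expressed genes that fell were Anxa8 (log2 -2.18), Gpr50 (-2.37), Doc2b (-2.14) and Dpysl4 (-1.35), with 14.6 to 16.4 CPM in wild type cushions for Dpysl4 and at most 6.06 CPM for the other 3. Erv3, a retroviral envelope gene, measured 0.0470 and 4.12 CPM in wild type and 0 and 0.521 CPM in mutant cushions, so it was seen mainly in 1 library. Without mutant cushion 2 its adjusted p in the block fit was 0.558, the highest of the 38. The other 3 genes that no longer passed without that library were Tkt, Gfra1 and Matn4, at 0.0760, 0.0703 and 0.0760.

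**Figure D2:**
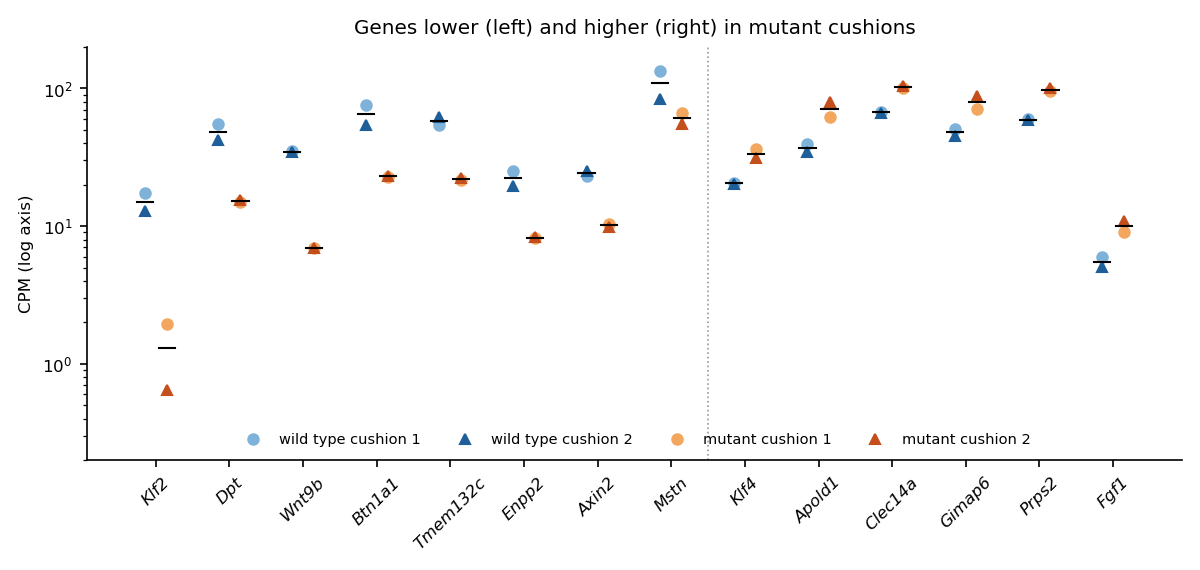
CPM on a log axis in each cushion library for 14 named genes, with wild type libraries in blue and mutant libraries in orange, circles for replicate 1, triangles for replicate 2 and bars for the mean of each genotype. Left of the dotted line both mutant libraries lie below both wild type ones, and right of it both lie above.

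The 12 genes that rose did so by less, with a median log2 fold change of 0.76, and none of their cushion libraries overlapped between genotypes. Klf4, the relative of Klf2 that is also induced by flow, measured 20.7 and 20.3 CPM in wild type and 36.1 and 31.3 CPM in mutant cushions (log2 0.72, SE 0.18, adjusted p 0.0310 with the block). Apold1, an endothelial gene induced early by stress, measured 39.2 and 34.4 CPM in wild type and 62.2 and 80.0 CPM in mutant cushions. Clec14a, a lectin-like endothelial surface protein, measured 67.4 and 66.7 CPM in wild type and 100.2 and 104.9 CPM in mutant cushions. Gimap6, a small GTPase of endothelium and lymphocytes, measured 51.1 and 45.2 CPM in wild type and 70.6 and 88.3 CPM in mutant cushions, and Gng11, a G-protein subunit, rose by 0.67. All 5 genes were higher in both mutant libraries, by 0.61 to 0.95 on the log2 scale. The whole list of 28 pan-endothelial genes was split in the fit without block or GC correction: 15 were higher and 13 lower, at a median of 0.06. In that fit without mutant cushion 2 the median was -0.06. With block and GC correction it was 0.20, against 0.008 over all genes tested. The summed level of the list was 2111 and 2099 CPM in wild type and 2126 and 2322 CPM in mutant cushions.

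The other 7 genes that rose had different functions. Prps2, an enzyme of nucleotide synthesis, measured 60.4 and 58.6 CPM in wild type and 96.3 and 100.2 CPM in mutant cushions. Fgf1, a growth factor, measured 6.01 and 5.07 CPM in wild type and 9.12 and 10.9 CPM in mutant cushions. Slc25a13, a mitochondrial aspartate and glutamate carrier, rose by 0.53, Prr15 by 0.92, the GTPase Diras2 by 0.79 and the choline transporter Slc5a7 by 1.46. In wild type ventricles Prps2 measured 169.2 and 203.1 CPM, Fgf1 30.8 and 37.4 CPM, Prr15 18.7 and 28.1 CPM and Slc25a13 222.5 and 251.0 CPM, all above their levels in cushions of either genotype. Without mutant cushion 2, in which ventricle-enriched genes were high, Prps2 still passed the block fit (adjusted p 0.00905), while Fgf1, Prr15 and Slc25a13 did not (0.0749, 0.100 and 0.154), nor did Gimap6 and Gng11 (0.0505 and 0.0923). Klf4 was near the threshold there, at 0.0499. Mybpc1, a muscle myosin-binding protein, had the largest rise (log2 2.55, SE 1.04), which came mostly from mutant cushion 1: it measured 2.58 and 0.950 CPM in wild type and 17.4 and 3.08 CPM in mutant cushions.

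Promoters of 3 genes, the 250 bases before the transcription start in RefSeq (GRCm38.p6), are shown because Dpt and Wnt9b were among the genes with the strongest fall and Klf4 is the relative of Klf2 that rose. Capitals mark the KLF core motif CCNCNCCC on either strand, with overlapping matches joined; each sequence is on its gene's strand.
Dpt, chr1:164796413-164796662, plus strand: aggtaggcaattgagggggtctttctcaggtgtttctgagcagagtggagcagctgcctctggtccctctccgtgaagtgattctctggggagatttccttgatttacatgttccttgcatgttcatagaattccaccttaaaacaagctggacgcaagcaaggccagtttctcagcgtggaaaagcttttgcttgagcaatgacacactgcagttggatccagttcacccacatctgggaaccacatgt
Wnt9b, chr11:103749822-103750071, minus strand: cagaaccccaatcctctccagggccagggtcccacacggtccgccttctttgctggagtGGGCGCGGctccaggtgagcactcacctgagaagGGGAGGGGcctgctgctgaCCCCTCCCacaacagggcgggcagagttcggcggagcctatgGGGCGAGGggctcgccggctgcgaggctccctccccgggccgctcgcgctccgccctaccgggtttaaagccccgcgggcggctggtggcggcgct
Klf4, chr4:55532476-55532725, minus strand: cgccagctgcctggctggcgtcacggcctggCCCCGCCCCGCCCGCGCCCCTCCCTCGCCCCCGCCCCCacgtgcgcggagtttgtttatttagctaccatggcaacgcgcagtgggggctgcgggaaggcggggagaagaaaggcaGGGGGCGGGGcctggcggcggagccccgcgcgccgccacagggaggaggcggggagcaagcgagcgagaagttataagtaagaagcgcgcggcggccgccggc
The motif occurred 4 times in the Wnt9b window, 9 times in that of Klf4 and not in that of Dpt. It is frequent in promoters: 64.3% of the 10373 tested genes with a listed promoter held it, as did 45.6% of all 27025 promoters listed. Of the genes that fell, 29 of 38 had a listed promoter and 24 of these (82.8%) held the motif, at a median promoter GC content of 59.6%, the same as over tested genes. Of those that rose, 10 of 12 had one and 4 (40.0%) held the motif, at a median GC content of 50.8%. A match describes the letters only and says nothing on whether KLF2 or KLF4 binds there.

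Of the genes that passed the block fit but not its GC-corrected form, 47 were lower and 32 higher. The lower ones were rich in GC, at a median of 56.6% of the transcript. Col1a1, the main chain of collagen I, measured 269.1 and 97.9 CPM in wild type and 159.3 and 54.8 CPM in mutant cushions. Lrp1, a large endocytic receptor, measured 383.5 and 154.4 CPM in wild type and 228.8 and 75.8 CPM in mutant cushions. For both genes the libraries numbered 1 were far above those numbered 2 in either genotype, so the groups overlapped and a difference showed only within a number. The adjusted p of Col1a1 was 0.0261 with the block and 0.319 with the GC correction as well, and that of Lrp1 moved from 0.00482 to 0.0962. Cacna1g, a calcium channel of pacemaker tissue, and Tubb3, a neuronal tubulin, were separated between genotypes, with log2 fold changes of -0.95 and -1.10. Fmod and Fbln1, 2 further matrix genes, had changes of -0.69 and -0.48.

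The 32 higher genes of this kind were poor in GC, at a median of 41.7%. Plek, a protein of platelets and leukocytes, measured 27.4 and 35.7 CPM in wild type and 83.8 and 69.1 CPM in mutant cushions. Rab27b, a GTPase of secretory granules, measured 8.73 and 7.64 CPM in wild type and 20.99 and 14.2 CPM in mutant cushions. Ogn, the small proteoglycan osteoglycin, measured 10.6 and 16.0 CPM in wild type and 24.3 and 28.7 CPM in mutant cushions, opposite in direction to Dpt and Bgn. Ccl2, a chemokine of activated endothelium and of leukocytes, measured 2.25 and 2.61 CPM in wild type and 4.61 and 7.34 CPM in mutant cushions. All 4 were separated between genotypes, and their adjusted p-values with GC correction were 0.149, 0.0637, 0.102 and 0.0995. Gimap4, St8sia4, Cadm1, Cenpw and the Y-linked Ddx3y were likewise higher in both mutant libraries, by 0.60 to 0.92 on the log2 scale. Of 6 sex-linked genes 4 were higher in mutant cushions, and 2 of them passed the block fit, Ddx3y (71.9 and 75.5 CPM in wild type, 118.3 and 108.9 CPM in mutant) and Uty (47.0 and 37.0 CPM in wild type, 68.0 and 56.0 CPM in mutant). Neither passed with the GC correction, and the ranges of the Y-linked Kdm5d and Eif2s3y overlapped. Xist, which the inactive X chromosome of females makes, measured 331.0 and 145.2 CPM in wild type and 260.3 and 132.1 CPM in mutant cushions. Every cushion library thus held both Xist and Y-linked transcripts, and a difference between the groups in the sexes of the embryos was not tested.

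A further 24 genes passed only with the GC correction, 15 higher and 9 lower. They include Wt1, the transcription factor of the epicardium, at 18.5 and 22.6 CPM in wild type and 30.5 and 30.3 CPM in mutant cushions, and Cd93, an endothelial surface lectin, at 365.2 and 351.2 CPM in wild type and 473.5 and 558.8 CPM in mutant cushions. Both genes were already separated between genotypes without the correction, at log2 fold changes of 0.56 and 0.53. Tgm2, a transglutaminase, moved from a log2 fold change of 0.17 to 0.47 under the block with GC correction.

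The relation between GC content and fold change extended over the whole transcriptome. Across 14748 genes, Spearman's rho between transcript GC content and the log2 fold change of mutant over wild type cushion was -0.607, given as a description because genes are not independent replicates. The median log2 fold change went from 0.31 in the lowest of 10 equal groups of genes ordered by GC content to -0.37 in the highest. Each of the 4 pairings of a mutant with a wild type library showed the trend, with rho between -0.637 and -0.361, and over the 9661 genes with a mean of at least 10 CPM it was -0.726. Wild type cushion 2 contributed most: its own deviation from the mean of the 4 cushions had a rho of 0.612, against 0.208 for wild type cushion 1, -0.387 for mutant cushion 1 and -0.434 for mutant cushion 2. Without wild type cushion 2 the trend was -0.397. In the ventricles the same contrast had a rho of 0.458, opposite in sign, and transcript length had a rho of 0.002 in cushions. The correction brought the cushion rho to -0.037. In the lowest of these groups the block fit called 16 higher and 2 lower genes, and in the highest 0 and 20; with the correction these counts were 1 and 3, and 0 and 3. With 2 libraries a group, a GC bias of the cushion libraries and a difference between genotypes cannot be told apart.

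**Figure D3:**
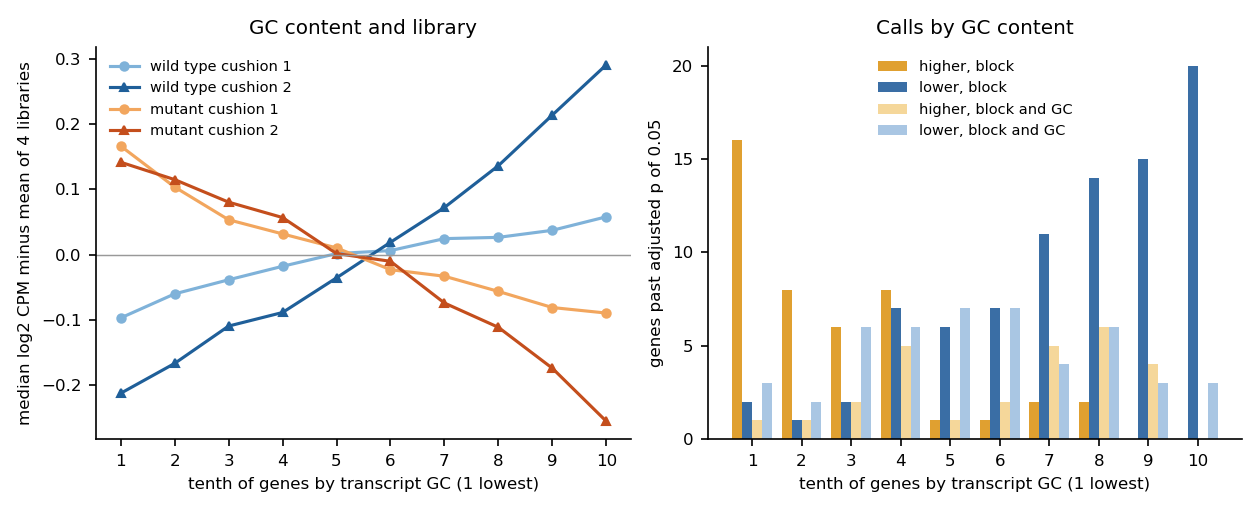
Left, median deviation of each cushion library from the mean of the 4 (log2 CPM) in 10 equal groups of genes ordered by transcript GC content. Both wild type libraries (blue) climb and both mutant libraries (orange) decline with GC content. Right, the number of genes that passed in each group in the block fit (dark bars) and in the block fit with GC correction (pale bars). Lower calls pile up at high GC content, up to 20, only in the dark bars.

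Gene lists by pathway and cell type are described by counts and medians, beside a median of -0.01 over all genes tested, with 7362 higher and 7578 lower. WNT feedback targets had the lowest median of the 38 lists, -1.09, and it was -1.02 without mutant cushion 2 and -0.71 after the GC correction. Next came neural crest and neurons, with 9 of 12 lower and a median of -0.50 (-0.46 after GC correction, -0.64 to -0.28 with 1 cushion library left out). WNT ligands followed, with 7 of 10 lower and a median of -0.46 (-0.25 after GC correction, -0.75 to -0.12 with 1 cushion library left out). Among 24 collagens 21 were lower, with a median of -0.40, and 4 of them passed the block fit. That median was -0.15 after the GC correction. Of 26 valve matrix genes 15 were lower, with a median of -0.24. In the block fit 6 of these genes were called lower and 1, Ogn, higher, and 3, Dpt, Bgn and Matn4, also passed with the correction. The basement membrane and mesenchymal transcription factor lists had medians of -0.26 and -0.19. These 4 medians depended on single libraries. For collagens, valve matrix, basement membrane and mesenchymal factors in this order they were -0.09, 0.08, -0.01 and 0.10 without mutant cushion 2, and -0.82, -0.79, -0.47 and -0.55 without mutant cushion 1. Without wild type cushion 1 they were -0.20, 0.02, -0.04 and 0.13, and without wild type cushion 2 -0.54, -0.36, -0.39 and -0.42. Dpt had a log2 fold change of -1.69 without mutant cushion 2.

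Genes of endothelial activation and flow did not move as 1 group. Of 8 tested activation genes 7 were higher, with a median of 0.37 that was 0.57 without mutant cushion 2. Edn1, endothelin 1, measured 16.4 and 19.03 CPM in wild type and 24.7 and 27.1 CPM in mutant cushions, and Sele, E-selectin, 4.65 and 4.08 CPM in wild type and 6.92 and 8.90 CPM in mutant cushions. Neither passed the block fit (adjusted p 0.0665 and 0.0811), although both were separated between genotypes. Of 18 flow-induced endothelial genes 12 were lower, with a median of -0.16 that lay between -0.07 without mutant cushion 2 and -0.36 without mutant cushion 1. They include Nos3, the endothelial nitric oxide synthase and a known KLF2 target, at 45.9 and 42.7 CPM in wild type and 34.3 and 23.5 CPM in mutant cushions (adjusted p 0.0520 with the block, 0.207 with GC correction). Pi16 fell and Klf4 rose in this list.

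Markers of cells other than endocardium and mesenchyme differed between the libraries. Of 13 epicardial genes 11 were higher in mutant cushions, with a median of 0.54 that was 0.31 without wild type cushion 1, 1.11 without wild type cushion 2, 0.42 without mutant cushion 1 and 0.61 without mutant cushion 2. Their summed level was 310.3 and 374.5 CPM in wild type and 519.8 and 432.6 CPM in mutant cushions, higher in both. Tbx18, a transcription factor of the epicardium and of other heart mesenchyme, passed the block fit only, and Wt1 only the one with GC correction. Of 18 leukocyte genes 17 were higher, with a median of 0.38 that was 0.05 without wild type cushion 1, 0.83 without wild type cushion 2, 0.53 without mutant cushion 1 and 0.17 without mutant cushion 2. Their summed level was 192.9 and 231.1 CPM in wild type and 208.4 and 305.9 CPM in mutant cushions, which overlap. Ptprc, the pan-leukocyte phosphatase CD45, measured 4.55 and 4.08 CPM in wild type and 7.504 and 8.73 CPM in mutant cushions, and Cd53, a leukocyte tetraspanin, passed the block fit only. The part of these cells in the values of Plek, Ccl2 and Gimap4 was not tested. Of 21 interferon-stimulated genes 20 were higher, with a median of 0.57, but without mutant cushion 2 the split was 11 to 10 and the median 0.00, and without mutant cushion 1 the median was 0.92.

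Of 20 pan-cardiomyocyte genes 16 were lower, at a median of -0.13. Without mutant cushion 2 all 20 were lower, at a median of -0.29, and without wild type cushion 1 the median was -0.24, while without mutant cushion 1 or wild type cushion 2 it was -0.03 or -0.01. None of them passed the block fit with all libraries. Tbx2, a transcription factor that marks AV canal muscle, measured 26.9 and 35.6 CPM in wild type and 17.1 and 17.2 CPM in mutant cushions; its transcript is rich in GC (63.2%), and its adjusted p was 0.0635 with the block and 0.377 with GC correction. Cell cycle genes had a median of 0.04 (-0.07 to 0.10 with 1 cushion library left out) and cytosolic ribosomal protein genes of 0.07 (0.00 to 0.11). Of 21 replication-dependent histone genes 18 were lower, with a median of -0.44 (-0.32 after GC correction, -0.21 without wild type cushion 2), the fourth lowest of the 38; these are near-identical copies, whose reads cannot be assigned with certainty, and edgeR without the block, with it and with GC correction called 0 of them, as did DESeq2, with 1 gene at an unadjusted p of 0.05.

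**Figure D4:**
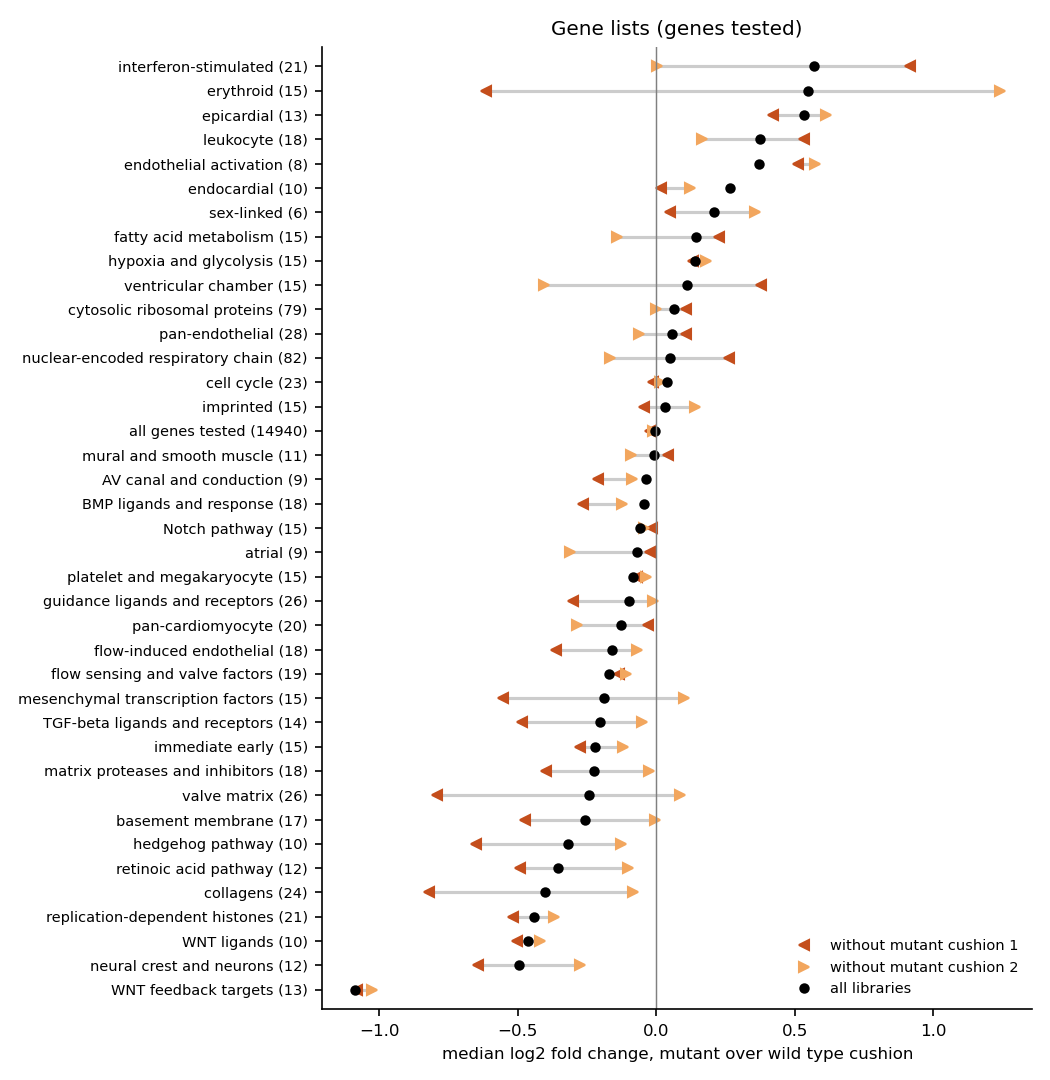
Median log2 fold change of mutant over wild type cushion for 38 gene lists and for all genes tested (number of genes in brackets). Black circles use all libraries, and triangles leave out mutant cushion 1 or 2. WNT feedback targets stay near -1 in all 3, while erythroid genes span -0.61 to 1.24.

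Genes enriched in the ventricle were high in mutant cushion 2. In the edgeR contrast of the wild type tissues without the block, 54 genes were at least 4-fold higher in ventricle than in cushion. They had an adjusted p under 0.05 and a mean of at least 1 CPM in ventricle. That fit held all 8 libraries, so the mutant libraries entered its estimate of the spread. Of these, 46 were higher in mutant cushion 2 than in mutant cushion 1, with a median log2 difference of 0.76, against -0.03 over all genes tested. Of 395 genes enriched in cushion by the same rule, 82 were higher in mutant cushion 2, and the median difference was -0.40. Both directions were shared by the replicate numbers of every group. The median log2 CPM of the 54 genes was -0.17 and 0.16 in wild type cushions 1 and 2, and 0.20 and 1.13 in mutant cushions. In ventricles it was 2.34 and 2.49 in wild type and 2.24 and 2.45 in mutant. The median of the 395 genes was lower in the library numbered 2 of each group. Between genotypes 335 of these 395 were lower in the mutant, at a median of -0.47 on the log2 scale, and of -0.31 without mutant cushion 2. Of the 54 ventricle-enriched genes 51 were higher in mutant cushions, at a median of 0.72, and of 0.10 without mutant cushion 2. Both sets were chosen on the wild type cushions that also enter this contrast. That choice favours these directions, so the values cannot tell whether the shift extends beyond mutant cushion 2. The part of tissue makeup in the genes that fell was not tested. Bmp10, a growth factor of trabecular muscle, measured 11.6 and 11.04 CPM in wild type cushions, 8.53 CPM in mutant cushion 1 and 40.9 CPM in mutant cushion 2, with 131.8 and 104.3 CPM in wild type ventricles. Nppa, the natriuretic peptide of trabeculae and atria, measured 242.2 and 334.9 CPM in wild type, 142.2 CPM in mutant cushion 1 and 754.0 CPM in mutant cushion 2. Gja5, the connexin of trabeculae, measured 62.5 and 123.4 CPM in wild type and 55.2 and 176.1 CPM in mutant cushions. In each case mutant cushion 2 was the highest and mutant cushion 1 the lowest of the 4 cushion libraries.

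Among markers of endothelium and endocardium, Emcn, endomucin, measured 38.0 and 47.9 CPM in wild type and 41.7 and 112.5 CPM in mutant cushions, and Npr3, a natriuretic peptide receptor, 197.6 and 261.0 CPM in wild type and 231.7 and 400.2 CPM in mutant cushions. Mest, an imprinted gene, measured 1069 and 1406 CPM in wild type and 1176 and 2803 CPM in mutant cushions. Mutant cushion 1 lay within the wild type range for all 3, so that differences of these genes rest on 1 library. The list of 10 endocardial genes did not follow them: its median log2 difference of mutant cushion 2 from mutant cushion 1 was -0.14. Between genotypes 6 were higher and 4 lower, at a median of 0.26, or 0.02 without mutant cushion 1. The list of 15 ventricular chamber genes had a median of 0.11 with both mutant libraries, -0.40 without mutant cushion 2, 0.38 without mutant cushion 1 and 0.01 without wild type cushion 1. Klf2, Dpt, Wnt9b, Btn1a1, Tmem132c, Enpp2 and Axin2 passed the block fit without mutant cushion 2, with adjusted p-values from 3.22e-07 for Klf2 to 0.00417 for Axin2.

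**Figure D5:**
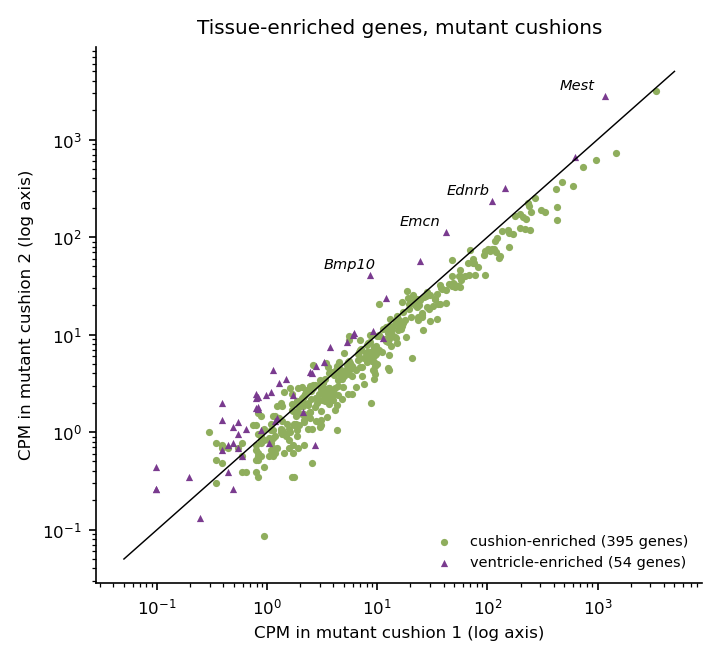
CPM in mutant cushion 1 (x axis) against mutant cushion 2 (y axis), both on log axes, for genes chosen on wild type tissues as ventricle-enriched (purple triangles) or cushion-enriched (green circles). The line marks equal levels. 46 of the 54 ventricle-enriched genes lie above it and most of the 395 cushion-enriched genes lie below it.

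The ventricle libraries of the same genotypes give a second measurement, though not an independent one. They share no library with the cushions, but the same fit estimated the spread and the replicate block over both tissues. Same-numbered libraries of the 2 tissues also deviated together. Klf2 measured 11.7 and 9.19 CPM in wild type and 0.736 and 0.625 CPM in mutant ventricles, a log2 fold change of -3.93 (adjusted p 4.56e-05 with the block). It was the 1 gene of the 38 that passed there. Of the 38, 30 were lower and 8 higher in mutant ventricles, with a median of -0.28, and of the 12 that rose 6 were higher and 6 lower, with a median of 0.07. Dpt and Wnt9b had ventricle log2 fold changes of -1.70 and -1.94, beside -1.67 and -2.32 in cushion, at wild type ventricle levels of at most 1.37 CPM and 2.83 CPM. Klf4, Apold1 and Gimap6 had ventricle changes of 0.88, 0.74 and 0.60, beside 0.72, 0.95 and 0.72 in cushion. Of the 12 genes that rose, 0 passed the block fit in ventricle. The whole pan-endothelial list had a ventricle median of 0.32, against -0.01 over all genes tested, so these rises are not particular to the 3 genes. Btn1a1, Enpp2 and Axin2 had ventricle changes of -0.21, -0.09 and -0.16. Their wild type ventricle levels were low too, at most 1.34, 1.60 and 3.26 CPM, so these changes rest on few reads.

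Whether a cushion difference was other than the ventricle one was tested directly. In edgeR no gene passed this interaction test without the block (smallest adjusted p 0.415, with 1776 genes at an unadjusted p of 0.05) or with it (0.0852, with 3594 genes), and DESeq2 and limma-voom called 0 as well. With the block and without wild type cushion 2, mutant cushion 2, mutant cushion 1, wild type ventricle 1 or mutant ventricle 1 the counts were 2, 198, 1312, 391 and 1198. With all libraries, therefore, no gene was shown to differ between cushion and ventricle in its response.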

How the data were processed

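Per the labels' protocols, total RNA from a Qiagen micro kit was depleted of ribosomal RNA and made into stranded libraries. The submitters' processing notes name Bowtie 0.12.7 and mm9; the counter, annotation and strand setting were, for this series, not given in the sources used here. Per the labels and files, the authors deposited raw read counts per row, taken unchanged. The 8 files hold 1 table of 28644 rows; 3705 symbols fill more than 1 row, often with near-equal counts, and only the row with most reads was used.

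Counts were tested with edgeR 4.0.16 (TMM, filterByExpr, robust quasi-likelihood, two-sided, Benjamini-Hochberg over 14940 genes) on all 8 libraries in 4 groups, since 2 libraries a group give few degrees of freedom. The replicate number was added as a block because deviations of same-numbered libraries correlated in all 6 pairs of groups (Pearson's r from 0.341 to 0.522); the labels do not say what the number marks. GC content and length, from GENCODE vM21 for 98.7% of tested genes, were corrected by splines with 5 degrees of freedom. DESeq2 1.42.0 and limma 3.58.1 (voom) were alternatives. CPM used TMM-scaled library sizes. The SE given is the absolute log2 fold change divided by the square root of the quasi-likelihood F. The code was tested on simulated data. Replicates differed by more than counting noise in every group (chi-square per degree of freedom from 43.0 to 111.4).

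Genes were named by rule: Klf2, Nfatc1 and Wnt9b; in each direction the 12 separated genes with the smallest p, and the 12 with the smallest p among those that passed both block fits, at a mean of at least 1 CPM; and up to 4 members of each list. Other members of the 38 and 12 genes, markers, sex-linked genes, Tgm2, Cd93, Col1a1, Lrp1, Nppa, Gja5, Epha3 and Unc5c were chosen after their values were seen. The gene lists, like the comparison, were chosen with earlier results of these data known.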

Additional observations from a re-analysis of the deposited data

How the results depend on the processing

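No gene was called by edgeR without the block, with GC correction alone, with other size factors or with summed rows. The called count was 129 with the replicate block, 74 with block and GC correction, 1 with cushion libraries only, 1863 with these and the block (1 residual degree of freedom), 25 in DESeq2 and 5 with no filter on low counts. Leaving out 1 library gave 0 to 1 without the block. With the block, leaving out replicates 1 and 2 in turn gave 30 and 25 (wild type cushion), 891 and 243 (mutant cushion), 65 and 40 (wild type ventricle) and 640 and 543 (mutant ventricle). The block and GC correction without mutant cushion 2, an alternative chosen after seeing the data, as was leaving out ventricles under the block, gave 250. Genes at an unadjusted p of 0.05 (1699) numbered 3557 with the block, 875 with GC correction and 3972 with the block in cushions only; leaving out 1 library gave 645 to 1858 without the block and, in the same order with the block, 2681 and 1181, 3832 and 2229, 3581 and 3607, and 3665 and 3685. Interaction calls were 0 except in the block fits without wild type cushion 2 (2), mutant cushion 1 (1312) or 2 (198), wild type ventricle 1 (391) or mutant ventricle 1 (1198), and in the block and GC fit without mutant cushion 2, at 69. The interaction has no value in cushion libraries only. The GC trend was -0.397 to -0.641 with 1 cushion library left out. Reversals of single genes were checked for only part of the genes named above. Bmp10, Nppa and Gja5, for example, were not in that check. For these genes mutant cushion 1 lay below both wild type cushions and mutant cushion 2 above both, so their direction rests on mutant cushion 2. Of the named genes tested 5 reversed in log2 fold change: Erv3 was 2.39 without wild type cushion 2 (lowest -8.52, without mutant cushion 2), Col1a1 was 0.11 without wild type cushion 1 (lowest -1.74, without mutant cushion 1) and Rgs5 was -0.38 without mutant cushion 1 (highest 3.65, without mutant cushion 2), Xist (-0.28 with all libraries) was -0.85 without mutant cushion 1 to 0.42 without wild type cushion 1 and was 0.13 without mutant cushion 2, and Eif2s3y (0.18 with all libraries) was -0.0295 without mutant cushion 1 to 0.37 without mutant cushion 2, -0.23 with GC correction, -0.24 with block and GC correction (-0.10 without mutant cushion 2) and -0.0169 and -0.0174 with the block without wild type cushion 1 and mutant cushion 1; the cause was not tested. Of the list medians recomputed under other settings, 494 stayed within the spread between library pairs and 38 did not. These counts do not measure stability. Some settings left out a ventricle library without the block, which hardly changes a cushion fold change. The spread between library pairs also widens where single libraries disagree. Genes under 1 CPM rest on few reads, so small differences in them were not detectable at this depth.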

Other observations

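Some genes were highest in mutant cushion 1 among the cushions. Rgs5, a marker of pericytes, measured 5.40 and 3.36 CPM in wild type cushions, 54.6 CPM in mutant cushion 1 and 3.34 CPM in mutant cushion 2, while the pericyte gene Pdgfrb measured 179.3 and 111.4 CPM in wild type and 129.8 and 64.0 CPM in mutant cushions. Only 1 library was high for Rgs5, and its adjusted p was 0.457 in edgeR without the block and 0.321 with it. Erythroid genes summed to 1984 and 857.6 CPM in wild type and 3864 and 1004 CPM in mutant cushions. The sums were 7180 and 2537 CPM in wild type and 8372 and 2871 CPM in mutant ventricles. The library numbered 1 was thus the higher in every group, so this was not particular to mutant cushion 1. The embryonic globin Hbb-y measured 1562 and 634.2 CPM in wild type and 3101 and 804.4 CPM in mutant cushions. The erythroid median of 0.55 became -0.61 without mutant cushion 1, 1.24 without mutant cushion 2, 1.07 without wild type cushion 1 and 0.19 without wild type cushion 2.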
